A study of Mus musculus with 28 samples.

Results

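The genes that lie beside Cyp27b1 on mouse chromosome 10 were followed through 28 libraries of duodenum and kidney cortex from mice with 3 forms of the vitamin D receptor gene Vdr. The 9 genes are Avil, Tsfm, Eef1akmt3, Mettl1, March9, Cdk4, Tspan31, Agap2 and Os9, 9 of the 31179 gene symbols in the duodenum table and of the 30227 in the kidney table. They were chosen by position, and also because Eef1akmt3 had been seen to lie higher with Cyp27b1 in kidneys of the mutant mice, so the kidney values of mutant against wild-type mice are given as a description without p-values. All mice were females of 8 weeks on one diet rich in calcium, phosphate and lactose (TD.96348), which the controls ate too. Wild-type mice (WT) carried Vdr+/+, receptor-null mice (KO) carried Vdr-/-, which the table headers call the Demay line, and AF2 mice carried a receptor without activation function 2, the surface that recruits coactivators. There were 6 WT, 4 KO and 4 AF2 libraries per tissue, and the sources used here say neither which bases are deleted nor whether pooled tissue was used. The study set absent receptor signalling against signalling without coactivators. Nothing in the labels says that libraries of a group came from separate mice, so p-values measure the spread between these libraries.

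Cyp27b1 encodes the mitochondrial cytochrome P450 that converts 25-hydroxyvitamin D into the active hormone, chiefly in the proximal tubule of the kidney. Parathyroid hormone raises its transcription there, and the hormone itself and FGF23 lower it. In mouse kidney, control regions of Cyp27b1 have been described in introns of the adjoining genes Mettl1 and Eef1akmt3, the latter earlier named Mettl21b. The neighbours themselves serve unrelated tasks. Eef1akmt3 methylates a lysine of the translation elongation factor eEF1A, Mettl1 methylates guanosine in transfer RNA together with Wdr4, and Tsfm is the guanine nucleotide exchange factor of mitochondrial translation. Avil is an actin-binding protein of the villin family found in sensory neurons and tuft cells, Cdk4 is the kinase partner of D cyclins in the G1 phase, and Tspan31 is a tetraspanin. March9 is a membrane-bound ubiquitin ligase, Agap2 is a GTPase-activating protein for Arf proteins, and Os9 is a lectin of the endoplasmic reticulum that works with Sel1l in the disposal of misfolded glycoproteins.

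Coordinates are those of mm10, with gene models from GENCODE release vM21. Cyp27b1 (ENSMUSG00000006724) spans chr10:127048250-127053006 on the plus strand. On its left lie Avil (ENSMUSG00000025432, chr10:127000709-127020994, plus), Tsfm (ENSMUSG00000040521, chr10:127011572-127030840, minus), Eef1akmt3 (ENSMUSG00000080115, chr10:127031004-127041513, minus) and Mettl1 (ENSMUSG00000006732, chr10:127041414-127046365, plus). On its right lie March9 (ENSMUSG00000040502, chr10:127055011-127060184, minus), Cdk4 (ENSMUSG00000006728, chr10:127063534-127067920, plus), Tspan31 (ENSMUSG00000006736, chr10:127067280-127070264, minus), Agap2 (ENSMUSG00000025422, chr10:127075284-127093169, plus) and Os9 (ENSMUSG00000040462, chr10:127095650-127121131, minus). Mettl1 is the closest body on the left, ending 1884 bp before Cyp27b1, and March9 is the closest on the right, 2004 bp beyond it. The starts of Eef1akmt3 and Mettl1 both lie close to 7 kb from that of Cyp27b1, at -6.7 kb and -6.8 kb. Those of March9, Cdk4, Tspan31, Agap2 and Os9 lie 11.9, 15.3, 22.0, 27.0 and 72.9 kb beyond it, and those of Tsfm and Avil -17.4 and -47.5 kb before it. Eef1akmt3 and Mettl1 run head to head, and their exons overlap by 100 bp at their starts. That overlap comes from 1 of the 5 annotated Mettl1 transcripts, and the other 4 start between 127041932 and 127041983, beyond the end of Eef1akmt3. Cdk4 and Tspan31 run tail to tail and share 641 bp of exon, and Avil and Tsfm overlap by 9423 bp, of which 165 bp are exonic in both. The libraries read the 3′ ends of transcripts, and whether counting used strand is not given in the sources used here. Reads in the shared ends of Cdk4 and Tspan31, and of Avil and Tsfm, therefore cannot be assigned to a gene with certainty, while Eef1akmt3 and Mettl1 share their starts and not their 3′ ends.

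**Figure D1:**
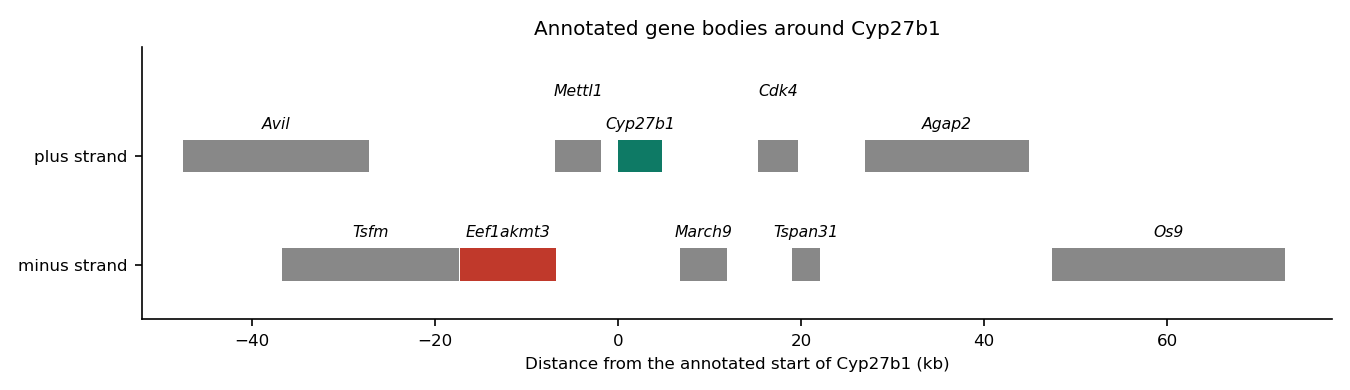
Annotated bodies of the 9 neighbours and Cyp27b1 drawn to scale as boxes on the plus strand (upper) and minus strand (lower), with the distance from the Cyp27b1 start in kb on the horizontal axis. Cyp27b1 is green and Eef1akmt3 red; the start of Eef1akmt3, at its right edge, meets the leftmost annotated start of Mettl1, at its left edge.

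The promoter windows of Mettl1, Cyp27b1 and March9 are shown because they are the start of the gene beside Eef1akmt3, the start of the gene with the rise, and the start of the closest gene on the other side. Each runs 5′ to 3′ on the strand of its gene from 250 bases before to 50 bases after the annotated start (RefSeq, GRCm38.p6). Capitals mark the letters CCAAT (the CCAAT box), TGACG (the core of a cyclic AMP response element) or CACGTG (an E-box) on either strand.
Mettl1, chr10:127041682-127041981, plus strand: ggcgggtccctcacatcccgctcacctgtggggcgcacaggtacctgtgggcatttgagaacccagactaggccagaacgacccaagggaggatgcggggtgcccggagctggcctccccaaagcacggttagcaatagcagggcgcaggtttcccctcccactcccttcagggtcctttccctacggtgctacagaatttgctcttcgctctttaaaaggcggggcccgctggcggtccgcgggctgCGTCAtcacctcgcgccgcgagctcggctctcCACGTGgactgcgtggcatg
Cyp27b1, chr10:127047996-127048295, plus strand: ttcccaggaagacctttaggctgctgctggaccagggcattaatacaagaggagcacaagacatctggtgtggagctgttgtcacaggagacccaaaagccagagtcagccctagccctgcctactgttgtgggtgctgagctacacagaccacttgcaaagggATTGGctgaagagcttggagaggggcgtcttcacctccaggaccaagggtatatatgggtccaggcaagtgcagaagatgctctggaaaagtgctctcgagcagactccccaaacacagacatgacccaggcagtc
March9, chr10:127060135-127060434, minus strand: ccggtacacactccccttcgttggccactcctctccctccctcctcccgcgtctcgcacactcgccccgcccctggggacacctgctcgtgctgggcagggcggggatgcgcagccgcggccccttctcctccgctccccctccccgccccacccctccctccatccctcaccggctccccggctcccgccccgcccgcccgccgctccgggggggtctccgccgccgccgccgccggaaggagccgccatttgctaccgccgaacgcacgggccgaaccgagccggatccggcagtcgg
The table gave windows for 9 of these 10 genes, and Eef1akmt3 was not matched. The Mettl1 window lies 169 to 468 bases upstream of the annotated start of Eef1akmt3, and is built on the RefSeq start of Mettl1, 127041932. Up to that start the window is upstream of both genes, apart from the GENCODE transcript of Mettl1 that begins inside Eef1akmt3, and its last 50 bases are Mettl1 transcript. GC content was 64.7% in the Mettl1 window, 54.3% in that of Cyp27b1 and 77.0% in that of March9. Cyp27b1 held a CCAAT box, Mettl1 a cyclic AMP response element core and an E-box, and March9 none of these letters. Among 32851 mouse promoters of the same length, 37.4% held CCAAT, 20.8% TGACG and 7.15% CACGTG on either strand. The DR3 element, a direct repeat with 3 bases between its copies that the receptor is known to bind, was searched on both strands. It was in none of the 9 windows and in 0.0396% of all promoters. These matches describe letters only.

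Library totals ran from 3713352 to 25181916 counts in duodenum, where the second highest was 6519522, and from 3725648 to 6492228 in kidney. Every deposited count was even, so statements about reads use counts divided by 2. Levels are CPM, counts scaled to the TMM-adjusted library size. The 6 proximal tubule markers all had counts in kidney, at a summed 4950 to 6405 CPM, and the 6 enterocyte markers all had counts in duodenum, at 9145 to 18333 CPM. Vdr in kidney was 197.2 ± 15.7 CPM in WT (SD, n = 6), 17.0 ± 6.44 in KO (SD, n = 4) and 80.9 ± 11.5 in AF2 (SD, n = 4), and in duodenum 486.9 ± 149.6, 110.8 ± 9.72 and 397.7 ± 29.7 CPM. Its tags can lie outside the deleted part, so the remaining signal says nothing of a working receptor. Library codes in the headers form 3 runs of consecutive numbers in each tissue, with WT 1 and WT 2 alone in the first, WT 3 and WT 4 with all KO in the second, and WT 5 and WT 6 with all AF2 in the third.

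In mutant kidneys Eef1akmt3 was the single neighbour that lay clear of wild type with Cyp27b1. The other 6 neighbours with enough reads to test, Mettl1 among them, overlapped wild type in both mutants, and Avil and Agap2 were close to the limit of detection. Cyp27b1 measured 3.46, 2.13, 1.81, 0.733, 1.43 and 1.68 CPM in WT 1 to WT 6. The KO libraries, 1 to 4, had 48.4, 90.1, 154.9 and 166.4 CPM, and AF2 1 to AF2 4 reached 326.7, 294.4, 248.4 and 21.5 CPM. Every mutant library lay above every WT library, with AF2 4 far below the other AF2 libraries. Eef1akmt3 measured 3.46, 6.05, 7.22, 5.13, 4.77 and 1.68 CPM in WT 1 to WT 6. In KO 1 to KO 4 it was at 17.5, 12.3, 40.4 and 37.1 CPM, and in AF2 1 to AF2 4 at 42.9, 47.7, 49.5 and 56.8 CPM. Here too no mutant library reached down to WT, and the AF2 libraries were tightly grouped while KO fell into a lower and a higher pair. These levels rest on 72 Eef1akmt3 reads in WT, 299 in KO and 461 in AF2. Because the tissue was measured whole, fewer cells of a type and less RNA per cell cannot be told apart.

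**Figure D2:**
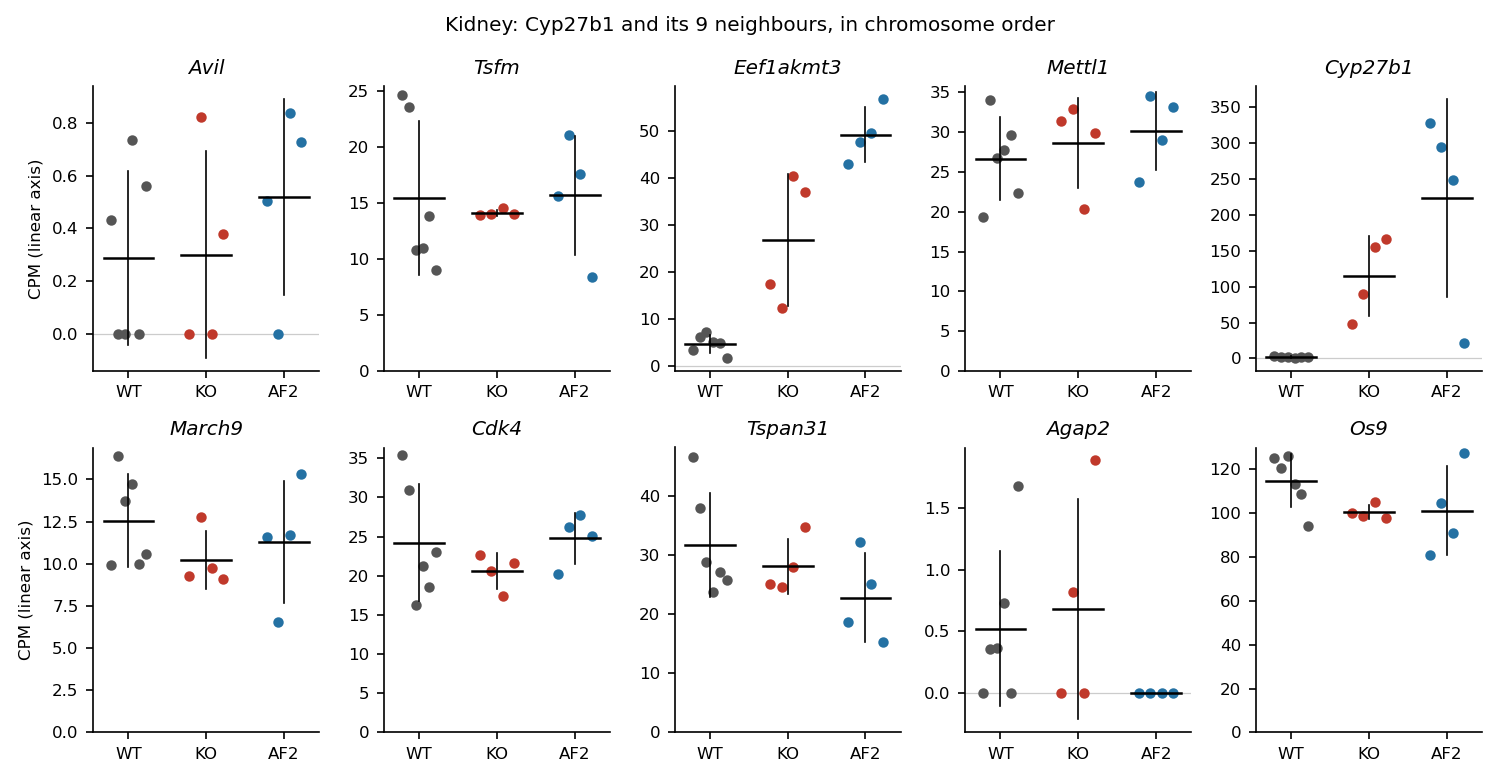
Level of Cyp27b1 and its 9 neighbours in every kidney library (points, CPM, linear axes) by genotype, in chromosome order, with the mean (horizontal line) and SD (vertical bar). Eef1akmt3 lies at 1.68 to 7.22 CPM in WT, 12.3 to 40.4 in KO and 42.9 to 56.8 in AF2, while the points of Mettl1 overlap among the 3 genotypes.

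The mean of Eef1akmt3 was 4.72 ± 1.95 CPM in WT (SD, n = 6), 26.8 ± 14 in KO (SD, n = 4) and 49.2 ± 5.8 in AF2 (SD, n = 4). Its log2 fold change was 2.48 ± 0.33 (SE; 95% interval 1.77 to 3.18) in KO and 3.34 ± 0.33 (2.64 to 4.03) in AF2, a 5.56-fold and a 10.1-fold difference from WT. Cyp27b1 had log2 fold changes of 5.93 ± 0.78 (4.21 to 7.66) and 6.88 ± 0.78 (5.16 to 8.6). Of the 7 neighbours tested, 1 was called higher and 0 lower in KO, where 0.844% of all 13502 genes were called and 0.289% were called higher. In AF2 it was again 1 called higher and 0 lower, where 2.71% of genes were called and 1.08% called higher. The groups of 1 neighbour did not overlap, on the higher side, in each comparison, beside 1.7% of all genes in KO and 2.37% in AF2. The gene is Eef1akmt3 each time, nothing can be read from these counts because the rise chose it, and the comparisons share the WT libraries. Within the runs of library codes, Eef1akmt3 was at 12.3 to 40.4 CPM in KO against 5.13 to 7.22 in WT 3 and WT 4, and at 42.9 to 56.8 CPM in AF2 against 1.68 to 4.77 in WT 5 and WT 6. With the run as a term of the model the KO difference of Eef1akmt3 was 2.13 on the log2 scale and no longer called. Cyp27b1 was called in neither mutant with that term (6.48 and 7.14), nor in KO with limma-voom (5.89) or with the replicate number as a block (5.97).

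Mettl1, whose start adjoins that of Eef1akmt3 and whose body lies between it and Cyp27b1, measured 19.4, 34.1, 26.7, 27.8, 29.6 and 22.4 CPM in WT 1 to WT 6. KO 1 to KO 4 had 31.4, 32.9, 20.4 and 29.9 CPM, while AF2 1 to AF2 4 had 23.7, 34.6, 29.0 and 33.2 CPM. The 3 groups covered nearly the same range. Its log2 fold change was 0.09 ± 0.17 (95% interval -0.26 to 0.44) in KO and 0.17 ± 0.17 (-0.18 to 0.52) in AF2, so the intervals end well below the fold changes of Eef1akmt3. The difference between the 2 genes' fold changes was not itself tested.

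Tsfm, the next gene beyond Eef1akmt3, measured 24.6 and 23.5 CPM in WT 1 and WT 2 and 8.97 to 13.8 CPM in the other 4 WT libraries. In KO it kept to 13.9, 14, 14.5 and 14 CPM, and in AF2 it was at 15.6, 21.0, 17.6 and 8.38 CPM. The mutant libraries lay inside the WT range except AF2 4, the lowest of all. Its log2 fold change was -0.14 ± 0.27 (-0.69 to 0.41) in KO and 0.00 ± 0.27 (-0.55 to 0.56) in AF2. Within the second run of codes every KO library lay above WT 3 and WT 4, which were at 10.8 and 11 CPM. Avil, at the far end of that side, had 4, 3 and 5 reads in all WT, KO and AF2 libraries and no library above 0.839 CPM.

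None of the 4 testable neighbours on the other side of Cyp27b1 was called in either mutant. March9, the closest, lay at 9.94 to 16.4 CPM in WT with a median of 12.2, at 9.27, 12.8, 9.74 and 9.08 CPM in KO, and at 11.6, 6.54, 11.7 and 15.3 CPM in AF2. Its log2 fold change was -0.31 ± 0.24 (-0.79 to 0.18) in KO and -0.15 ± 0.24 (-0.63 to 0.33) in AF2. Cdk4 lay at 16.2 to 35.4 CPM in WT with a median of 22.1, at 22.7, 20.6, 17.4 and 21.6 in KO, and at 20.2, 26.2, 27.7 and 25.1 in AF2. Both mutants sat inside the WT range, with log2 fold changes of -0.24 ± 0.19 (-0.64 to 0.15) and 0.03 ± 0.19 (-0.36 to 0.42). Tspan31 lay at 23.8 to 46.7 CPM in WT with a median of 28.0, at 25.2, 24.7, 28.0 and 34.8 in KO, and at 18.7, 32.2, 25.2 and 15.3 in AF2. AF2 1 and AF2 4 were below every WT library, and the log2 fold change of -0.48 ± 0.21 (-0.9 to -0.06) in AF2 was not called, like that of -0.17 ± 0.20 (-0.58 to 0.24) in KO. Os9 lay at 94.1 to 126.0 CPM in WT with a median of 116.9, at 99.9, 98.8, 105.0 and 97.9 in KO, and at 80.7, 104.7, 91.1 and 127.5 in AF2. Its log2 fold change was -0.19 ± 0.12 (-0.43 to 0.05) in KO and -0.18 ± 0.12 (-0.42 to 0.06) in AF2. Within the second run of codes March9 and Os9 were lower in every KO library than in WT 3 and WT 4. WT 1 and WT 2, which no mutant library shares a run with, held the highest Tsfm, Cdk4 and Tspan31 of all 14 kidney libraries. WT 1 also stood apart in a list of 5 immune markers, 4 of them with counts, which summed to 793.5 CPM there, with Cd74 at 701 CPM, and to 101.7 CPM in WT 2. The list summed to 72.2 to 104.0 CPM in WT 3 to WT 6, 71.7 to 113.6 in KO and 82.2 to 144.3 in AF2, with Cd79a at 0 in every library. Its part in these levels was not tested, and without WT 1 the log2 fold change of Tsfm in KO was 0.04. Agap2 had 7 reads in WT, 7 in KO and 0 in AF2, where 0 reads over the group allow up to 0.322 CPM of the unadjusted totals.

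The Eef1akmt3 libraries of AF2 and KO kidneys also lay apart. This comparison was not itself used to choose the genes, but the same mutant libraries entered the choice. Its p-values for Eef1akmt3 are therefore no independent support. All 4 AF2 libraries lay above all 4 KO libraries, at 42.9 to 56.8 against 12.3 to 40.4 CPM. The log2 difference was 0.86 ± 0.32 (95% interval 0.18 to 1.54) with an unadjusted p of 0.0164 and an adjusted p of 0.313 by edgeR's quasi-likelihood test, so it did not pass. By that test 0 of the 7 neighbours were called, beside 0.333% of all genes, and 1 had an unadjusted p under 0.05, beside 11.5% of all genes. DESeq2 and limma-voom also called 0. The groups of 1 neighbour did not overlap and lay higher in AF2, beside 3.55% of all genes. Cyp27b1 itself overlapped between the mutants, with a log2 difference of 0.94 ± 0.62 (-0.41 to 2.3) and an adjusted p of 0.614. The other 6 neighbours differed by -0.31 (Tspan31, interval -0.77 to 0.15) to 0.28 (Cdk4, -0.15 to 0.71), with adjusted p of 0.64 to 0.987. When genes with low counts were not removed, Eef1akmt3 passed at an edgeR adjusted p of 0.00464. The log2 difference there was 0.85, nearly unchanged, and the cause of the lower p was not tested. With the replicate number as a block the difference was 0.97 (edgeR adjusted p = 0.0635), and with the run of codes as a term 1.75 (edgeR adjusted p = 0.9).

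Markers of podocytes and of the thick ascending limb lay clear above WT in the same AF2 libraries. The 2 podocyte markers summed to 46.9 to 66.1 CPM in WT, 53.7 to 75.7 in KO and 94.4 to 142.4 in AF2. The 2 markers of the thick ascending limb summed to 2198 to 2894, 2861 to 3630 and 3334 to 3909 CPM, and all of these markers had counts. The 6 proximal tubule markers, of the cells that express Cyp27b1, summed to 5369 to 6405, 4950 to 5818 and 5122 to 5683 CPM. The 3 distal tubule markers summed to 1219 to 1416, 1352 to 1834 and 1255 to 1385 CPM, and the 3 collecting duct markers to 216.2 to 316.0, 284.8 to 340.8 and 252.3 to 347.6 CPM. The sums of these 3 lists overlapped WT in both mutants. A list of 5 pancreas markers summed to 167.5 to 226.4 CPM (WT), 90.6 to 161.7 (KO) and 80.7 to 112.6 (AF2), with counts for 2, 1 and 1 of its genes. The part of these shifts in the values of Eef1akmt3 was not tested. Cyp24a1, the enzyme that inactivates the hormone, was at 8.42 to 36.3 CPM in WT kidney and had 1 read in all KO and 2 in all AF2 libraries. AF2 4 had none of them.

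Library by library, Eef1akmt3 and Cyp27b1 split the KO libraries into the same pairs, while their order was inverse in AF2. In KO the libraries low in Cyp27b1, KO 1 and KO 2, were also the lower pair in Eef1akmt3, and KO 3 and KO 4 were the higher pair in each gene. Inside each pair the order was reversed, with Eef1akmt3 higher in KO 1 than KO 2 and in KO 3 than KO 4. In AF2 the order was fully inverse, from AF2 1, highest in Cyp27b1 and lowest in Eef1akmt3, to AF2 4, lowest in Cyp27b1 and highest in Eef1akmt3. Eef1akmt3 spanned only 42.9 to 56.8 CPM in AF2, and each order rests on 4 libraries. There were 0.362, 0.137, 0.261 and 0.223 Eef1akmt3 reads per Cyp27b1 read in KO 1 to KO 4, and 0.131, 0.162 and 0.199 in AF2 1 to AF2 3. AF2 4 had 2.64, from 156 reads against 59. WT libraries, with few reads of Cyp27b1, had 1.0 to 7.0.

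**Figure D3:**
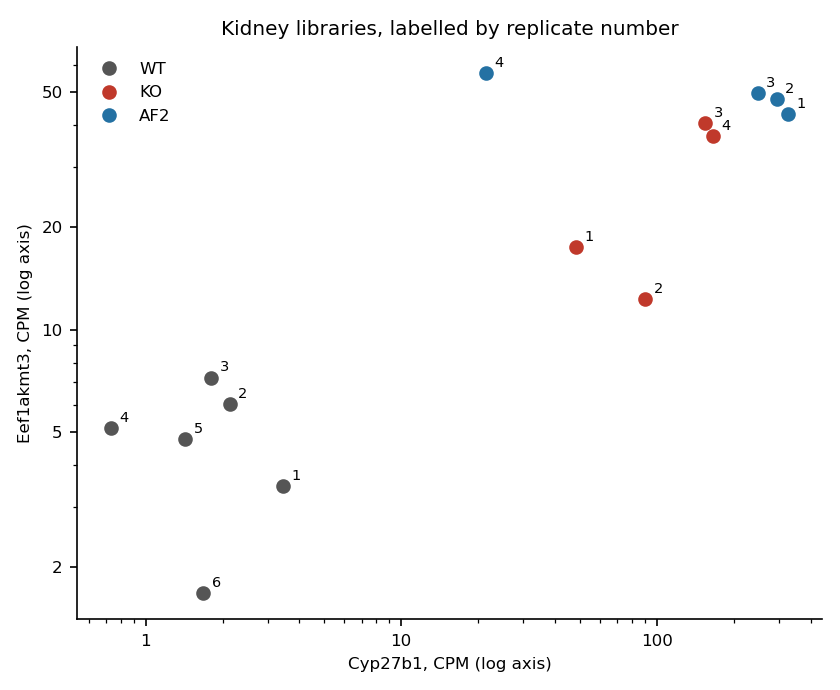
Level of Eef1akmt3 (vertical, CPM, log axis) against the level of Cyp27b1 (horizontal, CPM, log axis) in the 14 kidney libraries, coloured by genotype and numbered by replicate. WT and mutant libraries form separate sets, and AF2 4 stands alone at 21.5 CPM of Cyp27b1 and 56.8 CPM of Eef1akmt3.

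Correlations were taken over the 8 mutant kidney libraries after centring each gene on its genotype mean, which removes the difference that chose Eef1akmt3. Pearson's r of Eef1akmt3 with Cyp27b1 was 0.14 (exact permutation p = 0.649 over 576 orders within genotype, two-sided, adjusted p = 0.649 over 7 neighbours) and Spearman's rank coefficient was 0.00 (exact p = 1.0). Without AF2 4 and KO 1, the libraries farthest from the median of centred Cyp27b1, r was 0.48. Leaving out each library in turn gave 0.01 to 0.72, and the highest value is that without AF2 4 (exact permutation p = 0.333). The largest r was that of Tsfm, 0.87 (exact permutation p = 0.109, adjusted 0.296) with a Spearman coefficient of 0.90 (exact permutation p = 0.066, adjusted 0.462). It rested on AF2 4, which was lowest in both genes, and was 0.03 without it and 0.47 without AF2 4 and KO 1. Tspan31 had an r of 0.71 (exact permutation p = 0.113, adjusted 0.296), which was 0.35 without AF2 4 and 0.35 without both libraries. Os9 had -0.76 (exact permutation p = 0.127, adjusted 0.296), which was 0.0 without AF2 4 and -0.35 without both. Mettl1, Cdk4 and March9 had -0.43, -0.28 and -0.57, with adjusted p of 0.471, 0.638 and 0.479 by the exact permutation test, and -0.38, -0.2 and -0.56 without both. Spearman's coefficient was -0.33, -0.1 and -0.43 for these 3 genes, 0.45 for Tspan31 and -0.57 for Os9, with adjusted p of 0.576 to 1.0 by the exact permutation test. No neighbour's relation passed over these 8 libraries, where the smallest p the test can give is 0.00174. With the 6 WT libraries added and each gene still centred on its genotype mean, r of Tspan31 was 0.70 and passed (permutation test, adjusted p = 0.0489). Cyp27b1 had only 2 to 8 reads per WT library. WT 1 and WT 2, alone in their run of codes, were the highest WT libraries in both genes. The permutations kept to genotype and took no account of runs.

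Without centring, over all 14 kidney libraries, r also counts the distance between WT and mutants. The choice of Eef1akmt3 for its rise with Cyp27b1 therefore fixes a high rank in advance, and the rank is a description. By this measure Eef1akmt3 ranked 12 of 13501 genes by likeness to Cyp27b1 (r = 0.874). The 5 genes most like Cyp27b1 were Glul (glutamine synthetase, 0.969), AW822252 (0.942), Amdhd1 (an enzyme of histidine breakdown, 0.935), Jag1 (a Notch ligand, 0.914) and Fbp1 (a gluconeogenic phosphatase, 0.904). Those most like Eef1akmt3 were Fbp1 (0.943), Slc18a1 (a vesicular monoamine transporter, 0.916), AW822252 (0.914), Acsm2 (a mitochondrial acyl-CoA synthetase, 0.907) and Ftcd (an enzyme of histidine breakdown, 0.905), with Cyp27b1 at rank 17. Tsfm ranked 3295 by likeness to Cyp27b1 (r = 0.237), Mettl1 4850 (0.132), Cdk4 7522 (-0.04), Tspan31 10005 (-0.209), March9 12384 (-0.468) and Os9 13030 (-0.615). In the 8 centred mutant libraries Eef1akmt3 ranked 5250 (r = 0.136). All values of r share the libraries and their depth.

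In a wider window of 1000 kb to either side, no tested gene besides Cyp27b1 and Eef1akmt3 was called higher in mutant kidney against WT. Within 1000 kb of the Cyp27b1 start 84 gene names are annotated and 35 were tested in kidney. Cyp27b1 and Eef1akmt3 were called higher in each mutant against WT, which the choice of the genes fixed in advance, so these calls are a description. Of the other genes tested, 1 was called lower in each mutant, where 0.844% of all genes were called in KO and 2.71% in AF2. The called lower gene was Rdh16f2, a retinol dehydrogenase family gene 818.2 kb away (chr10:127866474-127877317, plus), with means of 255 CPM for WT, 113.9 for KO and 95.5 for AF2. Within 250 kb, 20 genes were tested, and none besides Cyp27b1 and Eef1akmt3 was called in a kidney comparison with WT. A730063M14Rik, a long noncoding RNA gene between Tspan31 and Agap2 at 22.1 kb, had log2 fold changes of 0.26 ± 0.37 in KO and 0.54 ± 0.37 in AF2. The closest tested genes beyond the ends of the group were Ctdsp2, at -69.5 kb, and B4galnt1, at 117.0 kb. Ctdsp2, a phosphatase gene, had log2 fold changes of 0.02 ± 0.11 in KO and 0.16 ± 0.11 in AF2, and B4galnt1, a ganglioside synthase gene, -0.38 ± 0.32 and 0.57 ± 0.3. Between AF2 and KO edgeR called none, beside 0.333% of all genes, and 3 of the 35 had an unadjusted p under 0.05, beside 11.5% of all genes. Ddit3, Dtx3, Eef1akmt3 and Naca lay higher in AF2 without overlap, 11.4% of the genes tested in this window beside 3.55% of all genes.

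**Figure D4:**
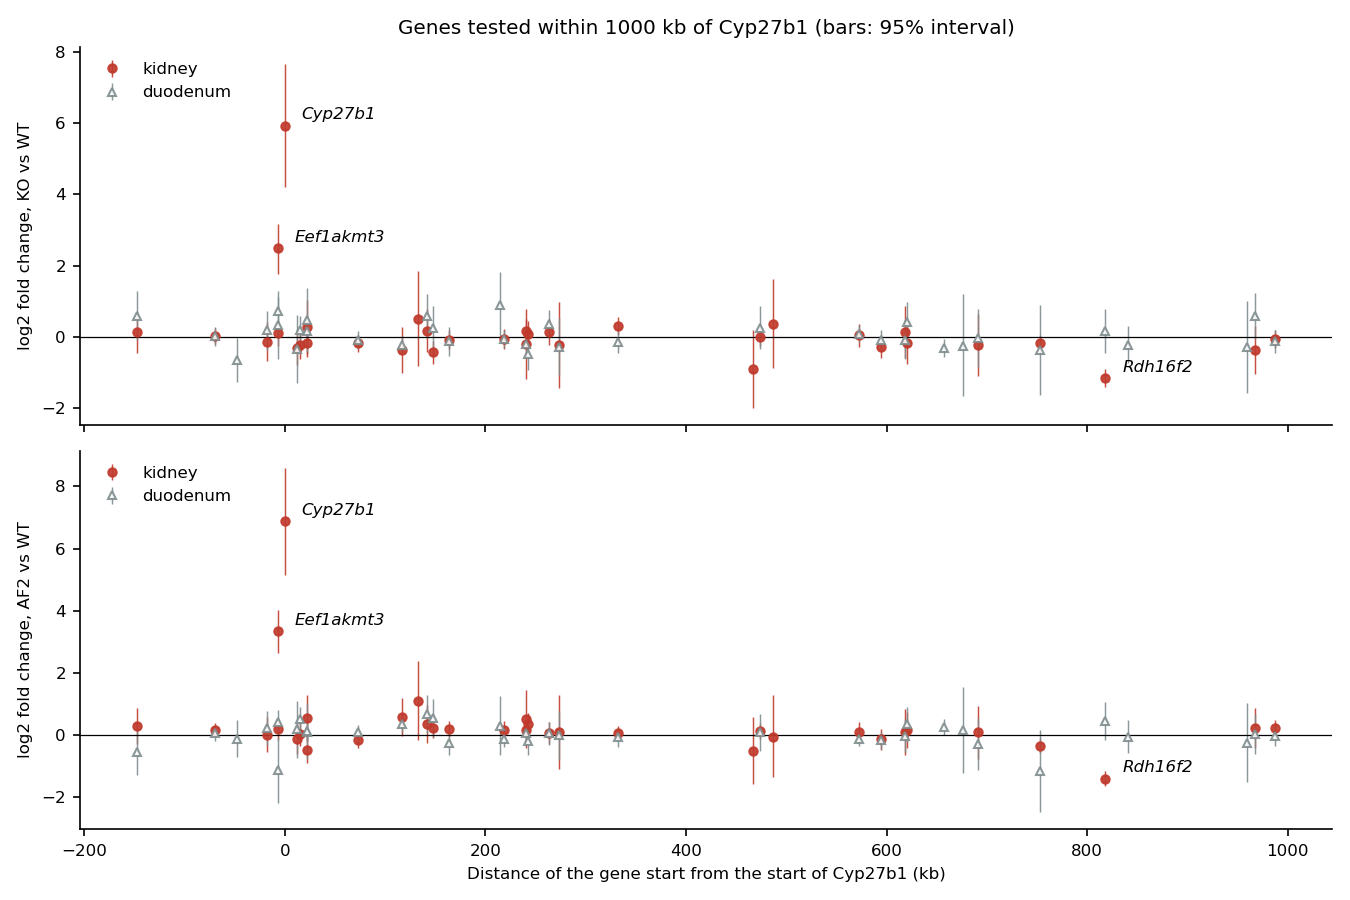
Log2 fold change against WT (vertical; bars are 95% intervals) in KO (upper panel) and AF2 (lower panel) of the genes tested within 1000 kb, by distance of the gene start from that of Cyp27b1 in kb (horizontal), in kidney (filled circles) and duodenum (open triangles). In kidney Cyp27b1 and Eef1akmt3 stand above 2 on the log2 scale, and Rdh16f2 is the called gene below 0.

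In the duodenum Cyp27b1 was barely detected and no neighbour passed the test. Cyp27b1 had 2 reads in all WT libraries and 0 in KO and AF2, which allows up to 0.363 and 0.328 CPM of the unadjusted totals. By edgeR 0 of the 8 neighbours tested were called in KO against WT, where 0.0226% of 13302 genes were called, 0 in AF2 against WT (0.0677%) and 0 in AF2 against KO (0.015%). Unadjusted p was under 0.05 for 2, 2 and 1 of them, beside 11.4%, 11.8% and 9.98% of all genes, and DESeq2 and limma-voom called 0 each time. In AF2 against KO the 7 neighbours other than Eef1akmt3 had adjusted p of 0.627 to 0.986. Agap2, with 10, 7 and 8 reads in WT, KO and AF2, was too low to test.

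Eef1akmt3 lay on the low side in AF2 duodenum, opposite to kidney, and did not pass the test. It measured 2.94, 4.44, 4.98, 5.72, 3.16 and 3.67 CPM in WT 1 to WT 6, 8.7, 5.57, 2.56 and 4.11 in KO 1 to KO 4, and 2.47, 2.37, 2.6 and 0 in AF2 1 to AF2 4. All AF2 libraries lay below all WT libraries, and the KO libraries spanned the WT range. The log2 fold change of AF2 against WT was -1.13 ± 0.52 (95% interval -2.19 to -0.07, edgeR adjusted p = 0.398), and 1 neighbour was lower without overlap, beside 1.25% of all genes. Against KO it was -1.45 ± 0.55 (-2.59 to -0.31, adjusted p = 0.339; -0.81 with the run of codes as a term), and KO against WT was 0.33 ± 0.47 (-0.64 to 1.29, adjusted p = 0.831). The AF2 level rests on 18 reads in 4 libraries. Enterocyte markers summed to 9260 to 18333 CPM in WT, 9145 to 13207 in KO and 9297 to 13110 in AF2. Pancreas markers, all 5 with counts, ran from 37.1 to 13227 CPM in WT, 76.2 to 8003 in KO and 244.2 to 6353 in AF2, and their part in these values was not tested.

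Mettl1 measured 16.0, 21.0, 13.8, 30.8, 15.3 and 18.0 CPM in duodenum WT 1 to WT 6. It was at 29.2, 26.4, 29.9 and 40.6 in KO, and at 24.7, 25.7, 27.3 and 23.8 in AF2. Every mutant library was above every WT library but WT 4. The log2 fold change was 0.71 ± 0.19 (0.31 to 1.11) in KO, with an unadjusted p of 0.00115 and an edgeR adjusted p of 0.161, and 0.40 ± 0.20 (-0.01 to 0.8, adjusted p = 0.43) in AF2. Without WT 4, Mettl1 was called in KO, at 0.89 and an adjusted p of 0.0134.

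Cdk4 measured 33.4, 32.9, 33.8, 55.5, 28.4 and 26.0 CPM in duodenum WT 1 to WT 6. It was at 37.4, 34.5, 45.7 and 40.2 in KO, and at 36.6, 41.2, 66.2 and 54.0 in AF2. WT 4 was again the single WT library among the mutants. The AF2 log2 fold change was 0.50 ± 0.19 (0.12 to 0.89, edgeR adjusted p = 0.292), and without WT 4 it was 0.69 with an adjusted p of 0.0338. In KO it was 0.18 ± 0.19 (-0.22 to 0.57, adjusted p = 0.764).

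Avil, near the limit of detection in kidney, measured 5.89 to 26.4 CPM in WT with a median of 19.0. It was at 10.2, 10.1, 11.9 and 10 CPM in KO and at 16.8, 10.8, 21.2 and 12.9 in AF2. The KO libraries were close together and inside the WT range, with a log2 fold change of -0.66 ± 0.30 (-1.28 to -0.04, edgeR adjusted p = 0.4), and AF2 gave -0.13 ± 0.29 (adjusted p = 0.912). The 7 tuft cell markers, of the cells known for Avil, summed to 35.4 to 65.1 CPM in WT, 46.5 to 62.3 in KO and 37.6 to 48.3 in AF2. Tsfm lay at 4.98 to 12.6 CPM, Tspan31 at 26.0 to 40.5 CPM, March9 at 1.11 to 7.42 CPM and Os9 at 124.2 to 198.5 CPM over the 14 duodenum libraries, with groups that overlapped in every comparison. Their log2 fold changes against WT ran from -0.35 (March9 in KO) to 0.21 (Tsfm in AF2), with edgeR adjusted p of 0.71 to 0.929.

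**Figure D5:**
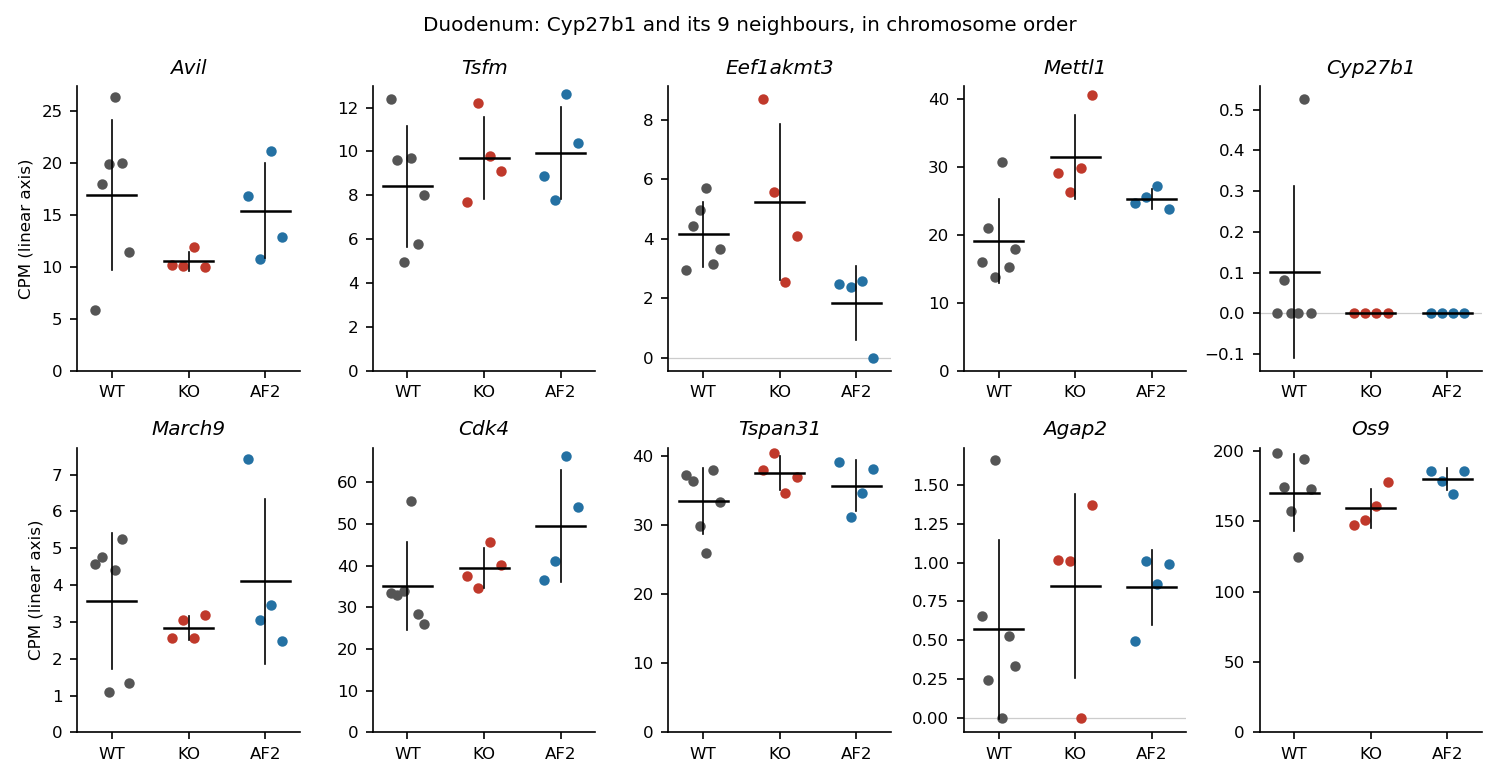
Level of Cyp27b1 and its neighbours in every duodenum library (points, CPM, linear axes) by genotype, in chromosome order, with the mean (line) and SD (bar). Eef1akmt3 lies at 0 to 2.6 CPM in AF2, below the 2.94 to 5.72 CPM of WT, and Cyp27b1 has reads in WT alone.

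By mean level, Eef1akmt3 stood highest in AF2 kidney (49.2 CPM), followed by KO kidney (26.8), KO duodenum (5.24), WT kidney (4.72), WT duodenum (4.15) and AF2 duodenum (1.86). Tissues were scaled separately, and the ranges of KO duodenum, WT kidney and WT duodenum overlapped.

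A list of 56 partners and family relatives of the neighbours, 54 of them tested in each tissue, had 4 calls in all. In KO kidney 1 was called higher and 1 lower, 3.7% of those tested beside 0.844% of all genes, and in AF2 kidney also 1 and 1, 3.7% beside 2.71%. In the other 4 comparisons edgeR called 0. In AF2 against KO kidney 0.333% of all genes were called, and 5 of the list had an unadjusted p under 0.05, beside 11.5% of all genes. In duodenum 4 (KO against WT), 6 (AF2 against WT) and 2 (AF2 against KO) did, beside 11.4%, 11.8% and 9.98% of all genes. The shares of all genes called there were 0.0226%, 0.0677% and 0.015%. The list was chosen with earlier results of these data known, so its kidney calls against WT are a description. Tspan3, a tetraspanin like Tspan31, fell from 190.4 CPM in WT to 126.5 in KO (log2 fold change -0.59 ± 0.12). Its AF2 mean was 108.2 CPM (-0.81 ± 0.12). Tspan13 rose from 11.1 to 20.9 CPM in KO (0.90 ± 0.19). Sel1l, the partner of Os9, rose from 110.2 to 147.0 CPM in AF2 (0.42 ± 0.10). Mettl21a, a methyltransferase related to Eef1akmt3, had means of 8.99, 7.3 and 7.77 CPM for WT, KO and AF2, and Wdr4, the partner of Mettl1, 12.7, 11.4 and 12.0 CPM, and neither was called. The list's median log2 fold change was -0.02 in KO kidney and -0.04 in AF2 kidney, where that of all genes was 0.0.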

How the data were processed

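Total RNA was extracted in TRIzol and libraries were made with a Lexogen QuantSeq kit, per the labels' protocols. The authors deposited raw counts per gene symbol and library, 1 table per tissue, per the file headers, with no normalisation. The submitters' processing notes name mm10 and limma 3.34.9, without a role. No source used here gives the aligner, the counter or the use of strand. Columns were matched to samples by the library code in the labels, and the 27 pairs of libraries of the same group in each tissue varied beyond sampling noise (chi-square per degree of freedom of halved counts 1.96 to 10.6 in kidney and 5 to 36.3 in duodenum).

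Each tissue was fitted with edgeR 4.0.16 (R 4.3.3) over its 14 libraries, with filterByExpr by group, TMM scaling, robust quasi-likelihood F tests, two-sided, and Benjamini-Hochberg adjustment over the 13302 genes tested in duodenum and 13502 in kidney. A gene was called at an adjusted p under 0.05. CPM use TMM-adjusted library sizes, and correlations use log2 CPM with a prior count of 2. A floor of 3 reads over a group was used where it had 0, and floors cover counting error only. Steps were tested on simulated data. Alternatives used DESeq2 1.42.0, limma-voom (limma 3.58.1), RLE scaling, no filter, counts divided by 2, the replicate number or code run as a block, and each library left out. The members and lists were chosen with earlier results of these data known. Every member is named in every comparison. Other genes are named by their rank in likeness, by a call or lack of overlap within 1000 kb, or by adjoining the 9 neighbours. From the list of partners and relatives, called genes and examples are named.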

Additional observations from a re-analysis of the deposited data

Results flagged for a closer look

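Among 49 groups with enough reads, 4 had a library that stood apart from the others, where chance flags about 1 in 20 groups. Eef1akmt3 in duodenum AF2 4 was at 0 CPM, and the nearest AF2 library was at 2.37 CPM. Cdk4 in duodenum WT 4 was at 55.5 CPM with the nearest at 33.8 CPM. Avil in duodenum KO 3 was at 11.9 CPM with the nearest at 10.2 CPM, and Tsfm in kidney KO 3 was at 14.5 CPM with the nearest at 14 CPM, in groups with a very narrow range.

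Eef1akmt3 lay on opposite sides of WT in AF2 mice in the 2 tissues. The log2 fold change was -1.13 in duodenum and 3.34 in kidney, and every AF2 library lay below every WT library in the first and above in the second. The difference between tissues was not tested.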

How the results depend on the processing

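Eef1akmt3 kept its direction against WT in kidney under every alternative run. With the code run as a block the count of called neighbours in KO kidney was 0 in place of 1, as Eef1akmt3 had a log2 fold change of 2.13 and did not pass, while in AF2 it was 3.88 and passed, and AF2 against KO was 1.75. That block sets each mutant against the 2 WT libraries of its run. Without the filter on low counts, 1 neighbour in place of 0 was called in AF2 against KO kidney (Eef1akmt3, 0.85) and 1 in KO duodenum (Mettl1, 0.69); the cause was not tested. Leaving out each library gave 1 called neighbour in both kidney comparisons with WT, 0 in both AF2 against KO comparisons, and 0 to 1 in each duodenum comparison with WT, the 1 being without WT 4.

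Small log2 fold changes turned sign. With the code run as a block they were 0.13 (Cdk4), 0.37 (Tsfm) and 0.10 (Tspan31) in KO kidney and 0.14 (March9) in AF2 kidney, against WT. In duodenum they were -0.18 (Cdk4), -0.04 (Eef1akmt3), 0.01 (March9) and 0.18 (Os9) in KO, -0.03 (Os9) in AF2, and 0.12 (Mettl1) and -0.21 (Os9) in AF2 against KO. Tsfm in AF2 kidney was 0.00 with RLE and -0.01 with counts divided by 2 and with limma-voom, which gave -0.01 for Os9 in AF2 against KO. Leaving out libraries gave, in kidney, -0.25 to 0.04 (Tsfm, KO), 0.0 to 0.21 (Mettl1, KO), -0.08 to 0.17 (Cdk4, AF2), -0.17 to 0.21 (Tsfm, AF2), -0.35 to 0.03 (March9, AF2), and in AF2 against KO -0.13 to 0.11 (Os9), -0.04 to 0.19 (Mettl1), -0.01 to 0.36 (Tsfm) and -0.04 to 0.35 (March9). In duodenum it gave -0.02 to 0.56 (Eef1akmt3, KO), -0.31 to 0.05 (Avil, AF2), -0.27 to 0.34 (March9, AF2), and in AF2 against KO -0.1 to 0.16 (Tsfm) and -0.11 to 0.0 (Tspan31). The correlation with Cyp27b1 ran from -0.87 to 0.0 for Os9. Still centred on genotype means but over all 14 kidney libraries, it was 0.09 for Cdk4 and 0.70 for Tspan31, which then passed (permutation test, adjusted p = 0.0489). Among WT, Tspan31 and Cyp27b1 were both highest in WT 1 and WT 2, and the permutations took no account of runs of codes.

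Replicate numbers gave no clear pairing of the samples within a tissue: the correlation of same-numbered libraries was -0.04 to 0.17 in kidney and -0.2 to 0.1 in duodenum. Between KO and AF2 duodenum, 3 of 4 correlated best with their own number, and 0 to 2 of 4 did in the other comparisons. With the replicate block the counts of called neighbours were as before, Eef1akmt3 was 2.22 in KO, 3.19 in AF2 and 0.97 in AF2 against KO, and in AF2 against WT kidney Cdk4 was -0.02 and Tsfm -0.14. Depth limits Avil and Agap2 in kidney, Agap2 and Cyp27b1 in duodenum, and Eef1akmt3 in AF2 duodenum.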
